A study of Mus musculus with 16 samples.

Results

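The yolk sac and the embryo of rudhira mutant mice were compared at 9.5 days post coitum, to describe which tissue programs each held in the mutant. The samples were chosen by their labels: 4 of the 8 RNA samples of the study, on 8 of its 16 arrays. They were yolk sacs 1 and 2 and embryos 1 and 2 of mice homozygous (-/-) for a deletion of exon 6 of rudhira, whose array symbol is Bcas3. The other 4 samples were yolk sacs and embryos of wild-type (+/+) mice of the same age, 2 of each. All mice were C57BL/6J, from matings of rudhira heterozygotes, and genotypes were read from the embryonic tail. The deletion is carried by the embryo and the yolk sac alike, so the comparison within the mutant contrasts tissues and not genotypes. By the labels, both mutant conceptuses had retarded growth and abnormal vessels, while the wild types grew normally and were vascularized. An embryo and a yolk sac with the same sample number came, by their label numbers, from 1 conceptus. Each RNA sample was read on 2 arrays, which are technical repeats, so n is 2 samples per group.

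The mouse yolk sac at this stage has an outer visceral endoderm, an absorptive epithelium that secretes serum proteins and lipoproteins before the liver takes over. Beneath it lies extraembryonic mesoderm with blood islands, where primitive red cells and the first vessels form, and a mesothelial lining. The embryo proper holds a closing neural tube, neural crest, somites, a beating heart tube and limb buds. Rudhira (Bcas3) is a cytoskeletal protein of endothelial and blood cells, needed for vessel remodelling in mouse embryos.

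The liver-type factors Hnf1 and Hnf4, which regulate serum protein and lipoprotein genes, are known in visceral endoderm. Promoters are shown for 3 named genes of these classes, higher in the mutant yolk sac and picked because they held letters of these factors. Promoters without such letters were passed over, among them that of Spp2, which had a larger yolk sac excess. Each window runs from 250 bases before to 50 after the gene start in RefSeq annotation of GRCm38.p6, written 5′ to 3′ along the gene. Fga (chr3:83025903-83026202, plus strand) encodes a fibrinogen chain, Apoc2 (chr7:19677892-19678191, minus strand) an apolipoprotein, and Cideb (chr14:55758375-55758674, minus strand) a lipid droplet protein of lipoprotein loading. Capitals mark letters searched on both strands. The half-site of the HNF1 factors was searched as GTTAAT. The element of the HNF4 factor was searched as CAAAGTC. The core promoter box that binds the general factor TBP was searched as TATAAA. Matches do not overlap in these windows.

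Fga: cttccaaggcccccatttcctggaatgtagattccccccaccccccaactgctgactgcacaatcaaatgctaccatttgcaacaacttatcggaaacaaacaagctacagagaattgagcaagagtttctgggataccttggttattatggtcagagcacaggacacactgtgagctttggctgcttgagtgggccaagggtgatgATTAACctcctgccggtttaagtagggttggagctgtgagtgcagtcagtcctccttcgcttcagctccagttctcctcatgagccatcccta
Apoc2: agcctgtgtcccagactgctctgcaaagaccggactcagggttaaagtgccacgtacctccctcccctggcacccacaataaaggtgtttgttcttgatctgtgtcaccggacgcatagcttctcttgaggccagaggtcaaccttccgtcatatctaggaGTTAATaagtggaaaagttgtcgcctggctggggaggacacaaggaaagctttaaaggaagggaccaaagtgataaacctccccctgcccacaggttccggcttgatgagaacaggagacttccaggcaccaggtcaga
Cideb: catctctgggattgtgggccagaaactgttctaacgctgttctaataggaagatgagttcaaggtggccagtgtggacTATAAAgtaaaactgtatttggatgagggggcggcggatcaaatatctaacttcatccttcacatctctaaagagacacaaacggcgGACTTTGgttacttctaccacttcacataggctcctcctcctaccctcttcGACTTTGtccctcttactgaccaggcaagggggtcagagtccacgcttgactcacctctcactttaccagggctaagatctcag

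The HNF1 half-site started 43 bases before the gene start in Fga and 89 bases before it in Apoc2. Cideb held the HNF4 element 85 and 34 bases before its start and the TBP box 172 bases before it. Of the tested serum protein and lipoprotein members, 29 of 37 had a promoter window, and 11 of these (37.9%) held the HNF1 half-site, against 7.2% of all 27025 windows and 4.16% of the 9174 tested genes with a window. Near-identical gene copies, Serpina1a, Serpina1b and Serpina1d, are counted singly in the 11. The others were Afp, Apoc2, F2, Fga, Fgb, Igfbp1, Itih1 and Vtn, of which Vtn was higher in the embryo. Among tested neural progenitor and heart members 4 of 50 windows (8%) held it. The HNF4 element stood in 2 of the 29 serum protein and lipoprotein windows (6.9%), those of Cideb and Vtn. The shares were 4.36% of all windows, 3.5% of tested genes and 4% of neural progenitor and heart members. The TBP box stood in 24.1%, against 14.2%, 7.36% and 20% in the same order. The GATA element AGATAA, the binding letters of Gata factors, stood in 10.3%, against 11.4%, 6.31% and 18%. A match of letters is a description and no evidence of binding.

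Of 45281 probes, 17382 to 19576 were detected per array, and the tested gene set held 11334 genes. A signal is the array's background-subtracted brightness, and a level is its log2 value after normalization between arrays. Before normalization the mutant yolk sac arrays were the dimmer ones, with upper quartiles of signal between 67 and 74.8, against 108.7 and 124 for the arrays of mutant embryos. Levels of the mutant embryos differed from each other with an SD of 0.228 on the log2 scale, and those of the mutant yolk sacs with an SD of 0.29. Bcas3 gave signals of 270.4 and 664 in the mutant embryos and 234 and 278 in the mutant yolk sacs. Wild-type embryos gave 331 and 391 and wild-type yolk sacs 759 and 1244, so the library labelled mutant embryo 2 lay above both wild-type embryos. The position of the probe relative to exon 6 is not given in the sources used here, so its signal does not check the label. The tissue difference of Bcas3 in mutants, -0.21 on the log2 scale (SE 0.33, adjusted p = 0.6), did not pass the threshold. The series' own design text lists mutant embryo 1 and not this library, and the main counts below are also given without it. In whole tissue, fewer cells of a type and less RNA per cell cannot be told apart.

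The tissues of the mutant differed in most of the tested genes. At an adjusted p under 0.05 (limma, Benjamini-Hochberg), 7850 of 11334 genes passed, 69.3% of those tested. Of these, 3712 (32.8%) were higher in the yolk sac and 4138 (36.5%) in the embryo. A change of at least 4-fold was reached by 632 genes (5.58%) in the yolk sac direction and 468 (4.13%) in the embryo direction. Without the library labelled mutant embryo 2 the count was 6825, with 3203 higher in the yolk sac and 3622 in the embryo, and 6739 of these were among the 7850. With so many genes called, a call alone says little about a list, and each list is read beside these shares and beside the median of all tested genes, -0.05 on the log2 scale. Under median scaling in place of quantile normalization 2762 genes were higher in the yolk sac and 4486 in the embryo, so 38.1% of the calls lay on the yolk sac side against 47.3%, while the median of all genes moved to -0.21. A gene detected in 1 tissue entered the test through the tissue where it was high and so leaned towards it. For lists with more than 1 such member, the counts among members detected in both tissues are given too. Over all genes detected in both, 3082 of 9898 were higher in the yolk sac and 3504 in the embryo. Detection split the tissues as well: 505 genes were detected on all 4 yolk sac arrays and none of the embryo arrays, and 508 the other way.

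**Figure D1:**
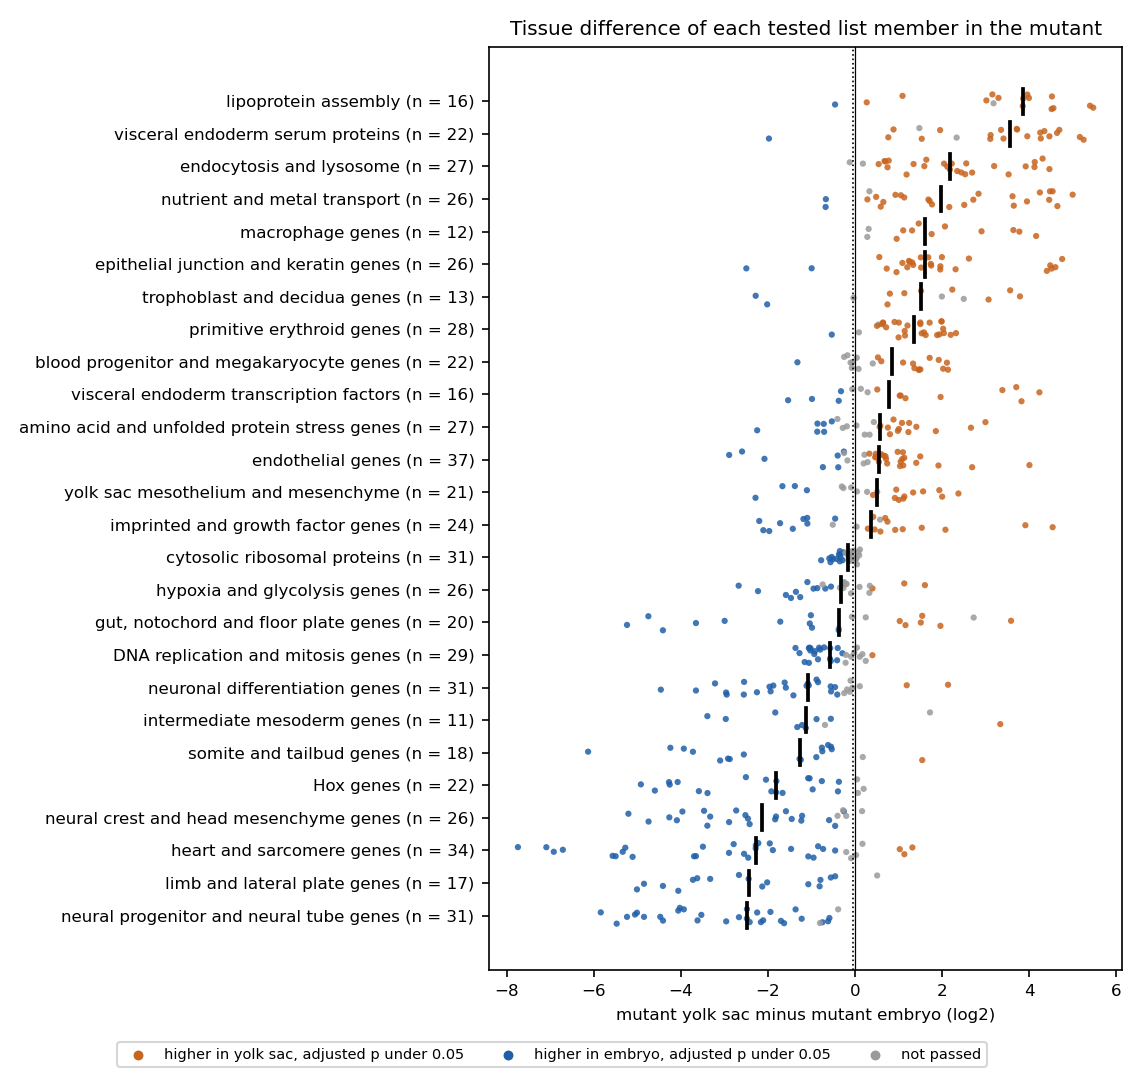
Tissue difference in the mutant (yolk sac minus embryo, log2) for every tested member of the 26 gene lists, 1 point per gene, with the list's median as a black bar and the median of all tested genes as a dotted line. Lipoprotein (median 3.86) and serum protein genes (median 3.56) stand at the yolk sac end, and neural progenitor (median -2.49), limb and heart genes at the embryo end.

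Among genes detected on all 8 mutant arrays, the 12 largest yolk sac excesses included apolipoproteins, a fibrinogen chain and transporters. Apoa4, an apolipoprotein of chylomicrons, gave signals of 142 and 190.2 in the mutant embryos and 5566 and 7013 in the mutant yolk sacs (log2 difference 5.47, SE 1.29, adjusted p = 0.00652). Apoc3, an inhibitor of lipoprotein lipase, gave 28.9 and 59.5 in the mutant embryos and 1739 and 1814 in the mutant yolk sacs (log2 difference 5.40, SE 0.60, adjusted p = 0.000142). Fga, whose promoter is shown above, gave 3744 and 4047 in the mutant yolk sacs against 105 and 149 in the mutant embryos (log2 difference 5.17, SE 1.11, adjusted p = 0.00413). In each of these genes both yolk sacs lay far above both embryos. Spp2, a secreted phosphoprotein made by liver, stood at 5.25 (SE 1.39), and Fxyd2, a subunit of the sodium pump, at 5.14. Slc39a5, a zinc transporter, gave 5.00, Slc23a3, an orphan member of the ascorbate transporter family, 5.00, and Car7, a carbonic anhydrase, 4.91. Ugt1a10, a glucuronosyltransferase whose last exons are shared with other Ugt1a genes, stood at 5.22, and the remaining members of the leading 12 were Fmr1nb at 5.15, 2610528J11Rik at 5.00 and Smlr1 at 4.95. The wild-type embryos share the estimate of the spread, and in all 12 genes wild-type embryo 1 lay below wild-type embryo 2 (Apoa4 gave 0.45 and 674); its part in the standard errors, from 0.52 for Smlr1 to 1.39 for Spp2, was not tested. The probes that differed most from the one used gave 1.47 for Ugt1a10, 2.26 for Fxyd2, 2.52 for Fmr1nb and 0.66 for Slc39a5, of the same sign. Spp2 did not pass without mutant embryo 1 (5.15, adjusted p = 0.0527).

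Another set of genes was detected on all 4 mutant yolk sac arrays and on none of the 4 mutant embryo arrays, so their fold is a lower bound, set by the dimmest signal that counted as detected. Haao, an enzyme of tryptophan breakdown, gave 895 and 485 in the mutant yolk sacs against 10.8 and 5.00 in the mutant embryos and was at least 25-fold higher in the yolk sac. Kng1, kininogen, gave 573 and 549.9 in the mutant yolk sacs against 12.1 and 14.1 in the mutant embryos, at least 21.5-fold higher. Plg, plasminogen, gave 406 and 348 in the mutant yolk sacs against 8.55 and 11.2 in the mutant embryos, at least 15.0-fold higher. All 3 are known products of liver, and in each the embryo signals stayed at background. Other probes gave smaller log2 differences, 3.28 and 4.31 for Haao, 2.77 for Kng1 and 2.59 and 1.95 for Plg. Those of Gltpd2, Mfsd4b5 and Rab17, listed next, gave 2.55, 3.76 and 3.15. The rest, in alphabetical order, were Acot4, a peroxisomal thioesterase, at a bound of 12.9-fold, Cdhr5, a protocadherin of microvilli, at 19.7, Gltpd2 at 20.5, Keg1 at 12.3, Mfsd4b5 at 23.7, Rab17, a GTPase of epithelial trafficking, at 12.5, and Serpina10, a protease inhibitor of the clotting system, at 15.2.

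Genes for serum proteins were higher in the mutant yolk sac in 19 of 22 tested members, with 1 higher in the embryo and 2 not passing, and the median difference was 3.56 on the log2 scale. Of the 14 members detected in both mutant tissues, 12 were higher in the yolk sac and 1 in the embryo. Afp, the fetal serum protein alpha-fetoprotein, gave signals of 330.4 and 377 in the mutant embryos and 6105 and 5266 in the mutant yolk sacs (log2 difference 4.26, SE 1.14, adjusted p = 0.0114). Trf, transferrin, gave 341 and 482 in the mutant embryos and 8555 and 8442 in the mutant yolk sacs (4.64), and Rbp4, the plasma carrier of retinol, 183 and 329 in the mutant embryos and 4144 and 4201 in the mutant yolk sacs (4.35). Yolk sac and embryo signals of these 3 genes did not overlap. Vtn, vitronectin, was the exception, at 174 and 128 in the mutant embryos and 14.9 and 13.4 in the mutant yolk sacs (log2 difference -1.98, SE 0.18, adjusted p = 5.38e-05). Ttr, the thyroxine carrier transthyretin, gave 3399.8 and 4752 in the mutant embryos and 17533 and 17390 in the mutant yolk sacs and did not pass (log2 difference 2.34, SE 1.33, adjusted p = 0.153), with wild-type embryos at 183 and 5726. The list's mean level was 6.77 and 6.86 in the mutant embryos, 10.17 and 9.68 in the mutant yolk sacs, and 5.54 and 7.91 in the wild-type embryos. The count of 19 fell to 13 without the library labelled mutant embryo 2 and to 12 without mutant embryo 1 or without mutant yolk sac 1, and was 20 in a fit of the 4 mutant samples alone. Another 6 members on the array, Alb and Ahsg among them, stayed below the detection filter.

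Lipoprotein genes followed, with 14 of 16 tested members higher in the yolk sac, 12 of them by at least 4-fold, and a median of 3.86. The count of 14 fell to 11 with no filter and was also lower with any mutant sample left out. The list's median was 3.44 without mutant embryo 1 and 4.23 without the library labelled mutant embryo 2. Apoa2, an apolipoprotein of high-density particles, gave signals of 653 and 917 in the mutant embryos and 15339 and 13951 in the mutant yolk sacs (log2 difference 4.52, SE 1.14, adjusted p = 0.00875). Apoc1 and Apoc2, small exchangeable apolipoproteins, gave 2129.8 and 1774 in the mutant yolk sacs against 78.2 and 121 in the mutant embryos and 819.8 and 721 in the mutant yolk sacs against 26.4 and 36.9 in the mutant embryos, with differences of 4.53 and 4.56. Apoc2 was detected on 3 of the 4 mutant embryo arrays. Cideb, whose HNF4 letters are shown above, gave 33.9 and 58.0 in the mutant embryos and 565 and 758 in the mutant yolk sacs (log2 difference 4.00, SE 0.33, adjusted p = 3.23e-05). All 16 members were detected in both tissues, so none of these differences rests on a bound. Pltp, the phospholipid transfer protein, had the opposite sign (-0.46) and did not pass without the library labelled mutant embryo 2 (-0.37, adjusted p = 0.117) or without mutant yolk sac 2 (-0.36, adjusted p = 0.102).

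The absorptive apparatus of the endoderm was higher in the yolk sac as well. Of 27 tested endocytosis and lysosome genes, 25 were higher there, 0 in the embryo, and the median was 2.18. Cubn and Amn encode cubilin and amnionless, the receptor complex that takes up vitamin B12 and apolipoprotein. Cubn gave signals of 61.0 and 164 in the mutant embryos and 1501 and 1925 in the mutant yolk sacs (log2 difference 4.31, SE 0.88, adjusted p = 0.00327), and Amn 456 and 925 in the mutant embryos and 10906 and 12529 in the mutant yolk sacs (log2 difference 4.47, SE 1.40, adjusted p = 0.0228). Both receptor genes separated the tissues in every mutant sample. Among the lysosomal proteases Lgmn, legumain, stood at 3.53, SE 0.39, Ctsc, a cathepsin, at 3.92, SE 0.39, and Ctsh, another cathepsin, at 4.13, SE 1.04. Fcgrt, the neonatal Fc receptor that carries maternal antibody, gave 3119 and 2681 in the mutant yolk sacs against 201 and 192 in the mutant embryos (log2 difference 4.12, SE 0.43, adjusted p = 0.000101). Amn did not pass with any single mutant sample left out (4.01 to 4.93, adjusted p = 0.0589 to 0.107), nor Ctsh without mutant embryo 1 (adjusted p = 0.0557), while the direction held in each.

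**Figure D2:**
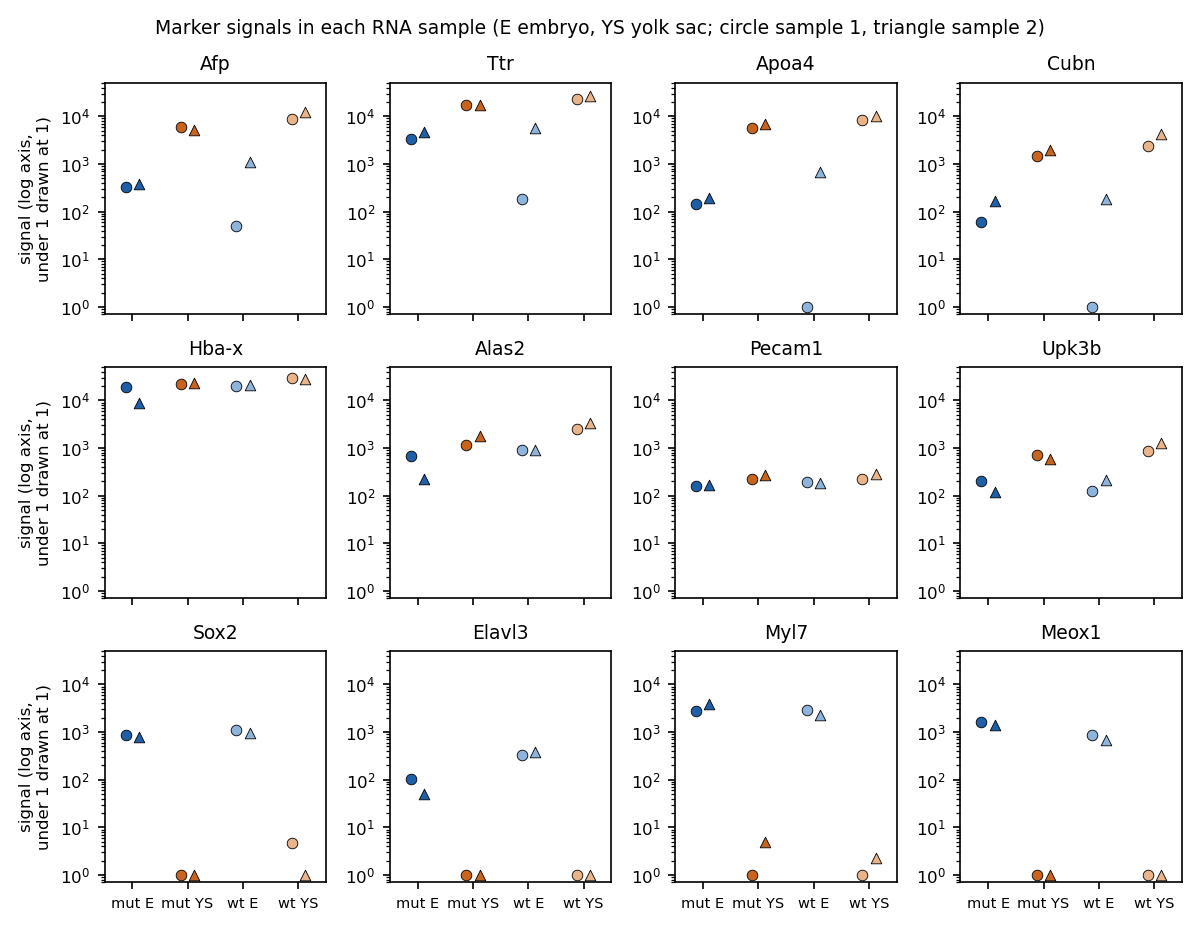
Signals of 12 marker genes in each of the 8 RNA samples (mean of 2 arrays, log axis, values under 1 drawn at 1). Afp, Apoa4 and Cubn lie higher in mutant yolk sacs than in mutant embryos, Sox2, Elavl3, Myl7 and Meox1 were detected in mutant embryos and not in mutant yolk sacs, and wild-type embryos 1 and 2 lie apart for Afp, Ttr, Apoa4 and Cubn.

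Brush border and junction genes were higher in the yolk sac in 24 of 26 tested members, with a median of 1.60. Among the 24 detected in both tissues, 22 were higher in the yolk sac and 2 in the embryo. Vil1, villin, which bundles actin in microvilli, gave 43.6 and 102 in the mutant embryos and 1258 and 1696 in the mutant yolk sacs (log2 difference 4.61, SE 0.66, adjusted p = 0.000535). Cdhr2, a protocadherin of the brush border, stood at 4.41, SE 0.59, Cldn2, a claudin of leaky tight junctions, at 4.49, SE 0.98, and Pdzk1, a scaffold for apical transporters, at 4.76, SE 1.36. Ocln, the tight junction protein occludin, stood at 2.62, SE 0.15 and was detected on 2 of 4 mutant embryo arrays. The exceptions were Grhl2, a transcription factor of surface epithelium, at -2.50, SE 0.15, and the claudin gene Cldn4 at -1.0, SE 0.19. Pdzk1 lost its call without mutant embryo 1 (adjusted p = 0.0773), mutant yolk sac 1 (0.0587) or mutant yolk sac 2 (0.0643).

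Transporters of nutrients and metals were higher in the yolk sac in 23 of 26 tested members, with a median of 1.97, or 1.94 with genes dim in the embryo set at their bound. Of the 21 detected in both tissues, 18 were higher in the yolk sac. Slc7a8 and Slc7a9, carriers of neutral and basic amino acids, gave 1213 and 2048 in the mutant yolk sacs against 48.4 and 102 in the mutant embryos and 1674 and 1423 in the mutant yolk sacs against 65.6 and 98.3 in the mutant embryos, respectively. Slc39a4, the zinc importer of the gut, gave 114 and 190.3 in the mutant embryos and 2789.5 and 2846 in the mutant yolk sacs (log2 difference 4.48, SE 0.92, adjusted p = 0.00335), and Slc2a2, the low-affinity glucose transporter, 86.0 and 182 in the mutant embryos and 1916 and 2117 in the mutant yolk sacs (log2 difference 4.25, SE 0.85, adjusted p = 0.00297). The 3 other probes of Slc2a2 gave 4.87, 4.63 and 0.92. The lowest yolk sac value in these 4 genes was several times the highest embryo value. Slc46a1, the folate transporter, at -0.68, SE 0.11, and Slc38a4, an imprinted amino acid transporter, at -0.67, SE 0.090, were higher in the embryo.

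Transcription factors of visceral endoderm were divided. Of 16 tested, 9 were higher in the yolk sac, 4 in the embryo and 3 did not pass, with a median of 0.77. Among the 12 detected in both tissues, 7 were higher in the yolk sac and 3 in the embryo. Hnf4a, which drives hepatic and endodermal genes, gave 60.5 and 115 in the mutant embryos and 917 and 906 in the mutant yolk sacs (log2 difference 3.71, SE 0.60, adjusted p = 0.00101). Foxa3, a forkhead factor of liver, stood at 3.83, SE 0.49, and Creb3l3, a membrane-bound factor of lipid metabolism, at 4.24, SE 0.33, detected on 2 of 4 mutant embryo arrays. Nr1h4, the bile acid receptor, was at least 7.48-fold higher in the yolk sac and Nr5a2, a nuclear receptor of endoderm, at least 3.19-fold. A second probe of Nr5a2 gave a log2 difference of 0.46. Foxa2, which the notochord and floor plate of the embryo also use, differed less, by 1.16. Higher in the embryo were Foxa1 (-0.99, SE 0.12), Prox1, a factor of liver and lymphatic precursors (at least 2.56-fold), and Gata6, a factor of endoderm and heart (-0.38, SE 0.13). Gata6 did not pass with mutant embryo 1 left out (adjusted p = 0.150), with the library labelled mutant embryo 2 left out (0.0659) or with mutant yolk sac 2 left out (0.156).

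Red cell genes were higher in the mutant yolk sac in 25 of 28 tested members, with 1 higher in the embryo and a median of 1.35. Alas2, the first enzyme of erythroid heme synthesis, gave signals of 666 and 225 in the mutant embryos and 1161 and 1751 in the mutant yolk sacs (log2 difference 2.20, SE 0.46, adjusted p = 0.00377). Nfe2, a transcription factor of red cells and megakaryocytes, gave 178 and 97.0 in the mutant embryos and 365 and 705 in the mutant yolk sacs (log2 difference 2.32, SE 0.32, adjusted p = 0.000453), and Klf1, the erythroid Krüppel-like factor, 244 and 94.5 in the mutant embryos and 288 and 416 in the mutant yolk sacs (log2 difference 1.62, SE 0.40, adjusted p = 0.00753). In these 3 genes both yolk sacs lay above both embryos, and the library labelled mutant embryo 2 lay lowest of the 4 samples. Gata1, another erythroid marker, gave 31.55 and 3.65 in the mutant embryos and 33.15 and 73 in the mutant yolk sacs. It was detected on 2 of 4 mutant embryo arrays. The embryonic globins were among the bright probes. Hba-x gave 19064 and 8767 in the mutant embryos and 21886 and 23102 in the mutant yolk sacs (log2 difference 1.00, SE 0.31, adjusted p = 0.0224) and Hbb-bh1 24221 and 14104 in the mutant embryos and 24424 and 25176 in the mutant yolk sacs (log2 difference 0.64, SE 0.23, adjusted p = 0.0413). Embryo 1 was close to the yolk sacs in both globins, and embryo 2 lay well below the other 3 samples. Cpox, an enzyme of heme synthesis, stood at 1.99, SE 0.18, Kel, a blood group protein, at 1.99, SE 0.45, Trim10, an erythroid gene, at 2.02, SE 0.40, and Ermap, another red cell surface protein, at 2.04, SE 0.37. Tfrc, the transferrin receptor, was the member higher in the embryo, at 2508 and 1974 in the mutant embryos and 1323 and 1119 in the mutant yolk sacs (log2 difference -0.54, SE 0.19, adjusted p = 0.0339). It did not pass without mutant embryo 1 (-0.30, adjusted p = 0.207), without mutant yolk sac 2 (-0.36, adjusted p = 0.177) or in the 4 mutant samples alone (adjusted p = 0.0548). The median was 0.91 with the library labelled mutant embryo 2 left out, and 19 of 28 members were higher in the yolk sac. Without mutant yolk sac 2 the count was 17.

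Blood progenitor and megakaryocyte genes were higher in the yolk sac in 13 of 22 tested members, with 8 not passing and a median of 0.85, or 0.57 with dim genes at their bound. Of the 16 detected in both tissues, 8 were higher in the yolk sac and 1 in the embryo. Gfi1b, a factor of red cells and megakaryocytes, gave 49.8 and 29.2 in the mutant embryos and 111 and 168 in the mutant yolk sacs (log2 difference 2.11, SE 0.22, adjusted p = 0.000109). Itga2b, the platelet integrin chain, gave 29.9 and 32.2 in the mutant embryos and 74.7 and 151 in the mutant yolk sacs (log2 difference 2.03, SE 0.25, adjusted p = 0.000218), and Lyl1, a helix-loop-helix factor of blood stem cells, stood at 1.71, SE 0.20. The yolk sac values exceeded the embryo values in every mutant sample. Pf4, a platelet chemokine detected on 2 of 4 mutant embryo arrays, gave 2.14, SE 0.43, and Treml1, a platelet receptor detected on 1 of 4, 1.92, SE 0.23. Tal1, a factor that both blood and early endothelium need, stood at 1.5, SE 0.31. Kit, the stem cell factor receptor, which germ cells and melanoblasts also carry, was higher in the embryo at 568 and 935 in the mutant embryos and 152 and 256 in the mutant yolk sacs (log2 difference -1.32, SE 0.24, adjusted p = 0.00168).

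Macrophage genes were higher in the mutant yolk sac in 10 of 12 tested members and in the embryo in 0. The median was 1.61, or 1.5 with dim genes at their bound. Another 9 members on the array stayed below the filter: Adgre1, Aif1, C1qa, C1qb, C1qc, Cd14, Cd53, Itgam and Itgb2. The embryo arrays detected none of 7 of the 12, and all 5 members detected in both tissues were higher in the yolk sac. Mrc1, the mannose receptor of tissue macrophages, gave 18.8 and 49.6 in the mutant embryos and 509 and 673 in the mutant yolk sacs (log2 difference 4.16, SE 0.34, adjusted p = 3.17e-05) and was detected on 2 of 4 mutant embryo arrays. Lcp1, the actin bundler of white cells, gave 61.6 and 95.7 in the mutant embryos and 803 and 809.9 in the mutant yolk sacs (log2 difference 3.64, SE 0.32, adjusted p = 4.06e-05). Fcgr3 and Fcer1g, parts of an antibody receptor, were at least 11-fold and 6.80-fold higher. Yolk sac samples exceeded embryo samples in each of these genes. Mpo, a granule enzyme of early myeloid cells, gave 113 and 24.6 in the yolk sacs, at least 2.90-fold higher, and was detected on 0 embryo arrays. Its 3 other probes gave level differences of 1.92, 0.22 and 0.43, and the last 2 were each detected on 1 mutant array. Csf1r, the growth factor receptor of macrophages, gave 19.8 and 27.2 in the yolk sacs and 6.95 and 0.70 in the embryos, where it was detected on 0 arrays. Tyrobp, another macrophage marker, gave 11.4 and 3.05 in the mutant yolk sacs and 5.75 and 1.6 in the mutant embryos. It was detected on 1 mutant yolk sac array and 0 mutant embryo arrays. Lyve1 and Stab2, described below with endothelium, can be carried by macrophages or sinusoidal endothelium.

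**Figure D3:**
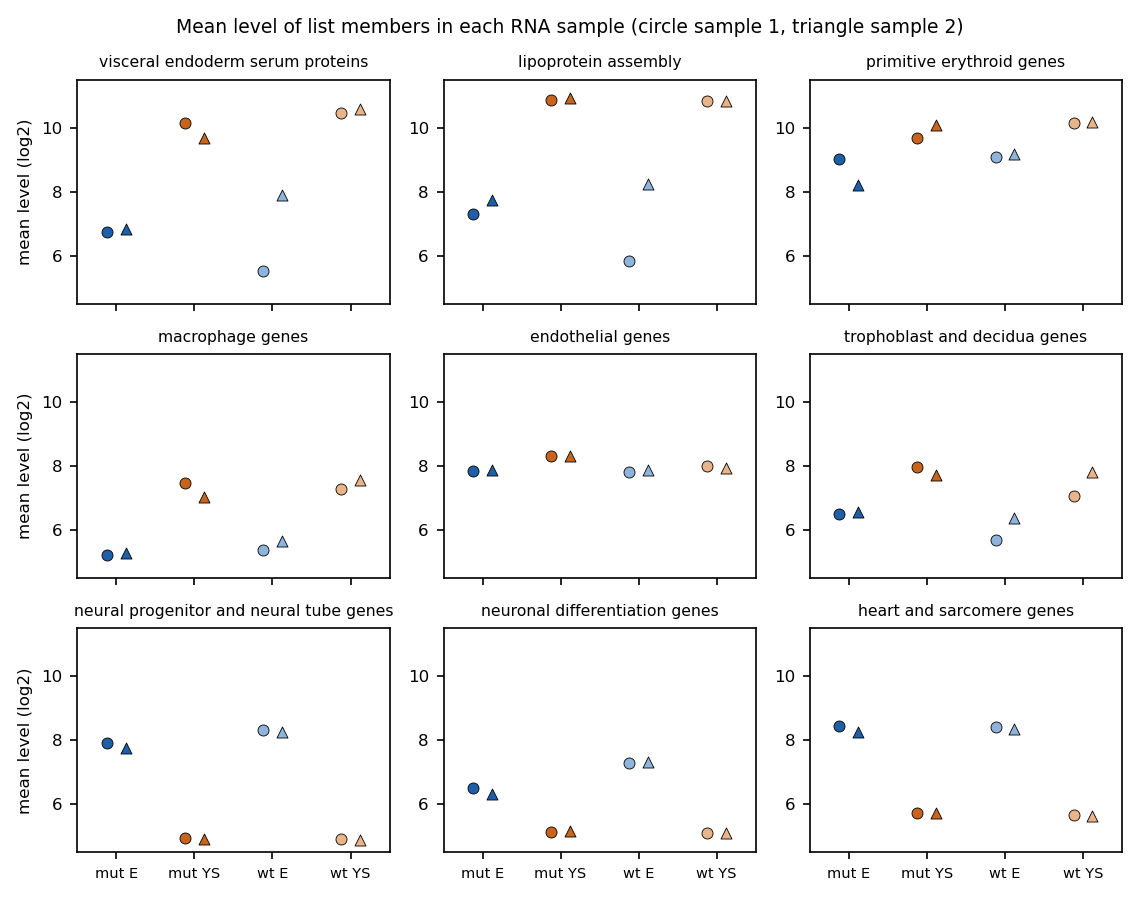
Mean level (log2) of the tested members of 9 gene lists in each of the 8 RNA samples, with mutant embryos and yolk sacs on the left of each panel and wild types on the right. Serum protein genes average 6.77 and 6.86 in mutant embryos and 10.17 and 9.68 in mutant yolk sacs, and the endothelial list 7.84 and 7.87 against 8.31 and 8.33.

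Endothelial genes leaned to the mutant yolk sac, with 25 of 37 tested members higher there, 7 in the embryo and 5 not passing, and a median of 0.55. Their mean level was 7.84 and 7.87 in the mutant embryos and 8.31 and 8.33 in the mutant yolk sacs. Pecam1, a junction protein of endothelium, gave signals of 163 and 166 in the mutant embryos and 227 and 268 in the mutant yolk sacs (log2 difference 1.10, SE 0.093, adjusted p = 3.50e-05), and Tie1, an endothelial receptor kinase, 72.3 and 76.7 in the mutant embryos and 106 and 118 in the mutant yolk sacs (log2 difference 1.13, SE 0.085, adjusted p = 2.05e-05). The yolk sac arrays were dimmer before normalization, and Cdh5, VE-cadherin, gave overlapping signals of 224 and 260.3 in the mutant embryos and 217 and 299.6 in the mutant yolk sacs and a level difference of 0.60 (SE 0.12). Signals of the marker Kdr also overlapped, at 31.8 and 42.9 in the mutant embryos and 26.75 and 37.6 in the mutant yolk sacs. Those of the marker Tek were 419 and 420.7 in the mutant embryos and 431.9 and 593.7 in the mutant yolk sacs. Under median scaling 16 members were higher in the yolk sac and 8 in the embryo, and the list's median was 0.41. Gja5, a gap junction protein of arteries, gave 174 and 149 in the mutant embryos and 442 and 469 in the mutant yolk sacs (log2 difference 1.92, SE 0.30, adjusted p = 0.000795), and Robo4, a guidance receptor of vessels, stood at 1.41, SE 0.15. Hey1 and Hey2, targets of Notch that heart and somites also use, were higher in the embryo at -2.60, SE 0.16 and -2.08, SE 0.14. The probe of Hey2 was detected on 5 of the 8 mutant arrays. Etv2, the factor that starts the endothelial program, gave 368 and 679.7 in the mutant embryos against 28.6 and 38.2 in the mutant yolk sacs (log2 difference -2.89, SE 0.24, adjusted p = 2.99e-05), with no overlap between tissues. Lyve1, a hyaluronan receptor, gave 26.4 and 85.9 in the mutant embryos and 601 and 887 in the mutant yolk sacs (log2 difference 4.01, SE 0.57, adjusted p = 0.0005), Stab2, a scavenger receptor, stood at 2.69, SE 0.18, and Esm1, a secreted product of tip cells, at 1.5, SE 0.37. In wild types 17 members were higher in the yolk sac and 8 in the embryo with a median of 0.24, and 0 of the 37 passed the test of a difference between genotypes.

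Mesothelial and mesenchymal genes of the yolk sac wall were less one-sided, with 11 of 21 tested members higher in the yolk sac and 4 in the embryo. The median was 0.51, or 0.41 with dim genes at their bound. Among the 18 detected in both tissues, 10 were higher in the yolk sac and 3 in the embryo. Upk3b, a membrane protein of mesothelium, gave 207 and 122 in the mutant embryos and 711 and 579 in the mutant yolk sacs (log2 difference 2.38, SE 0.33, adjusted p = 0.000471). Lum, the matrix proteoglycan lumican, gave 1035 and 669.8 in the mutant embryos and 3017 and 2595 in the mutant yolk sacs (log2 difference 2.00, SE 0.33, adjusted p = 0.00116), and Col1a2, a collagen chain, stood at 1.56, SE 0.29. In these genes embryo 1 lay above embryo 2, and both lay below the yolk sacs. Hand1, a factor of extraembryonic mesoderm and heart, stood at 1.13, SE 0.21. Vcam1, an adhesion protein, at -2.29, SE 0.33, Myl9, a smooth muscle light chain, at -1.67, SE 0.33, and Tgfbi, a matrix protein, at -1.38, SE 0.14, were higher in the embryo. The count of 11 was 7 without the library labelled mutant embryo 2 or without mutant yolk sac 1. Col1a1 (1.94, SE 0.62) and Postn, a matricellular protein (1.34, SE 0.43), lost their calls in both settings, at an adjusted p of 0.104 to 0.155, and with no filter (0.0626 and 0.0638). Col1a1 also lost its call without mutant yolk sac 2 (adjusted p = 0.0639). The list's median was 0.77 without mutant yolk sac 2. Msln, which encodes mesothelin, was detected on 0 mutant arrays.

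Markers of trophoblast and decidua, tissues that surround the yolk sac, were read as a check of the dissection. Of 13 tested members 8 were higher in the yolk sac and 2 in the embryo, with a median of 1.52. Of the 10 detected in both tissues, 6 were higher in the yolk sac and 2 in the embryo. Plac1, a placental membrane protein, gave 125 and 143 in the mutant embryos and 466 and 501 in the mutant yolk sacs (log2 difference 2.24, SE 0.16, adjusted p = 1.62e-05). The homeobox genes Rhox6 and Esx1, known from placenta, were at least 11.1-fold and 8.14-fold higher in the yolk sac, and Rhox9 stood at 3.07, SE 0.25. Prl2c2, proliferin of trophoblast giant cells, gave 192 and 317.2 in the mutant embryos and 1308 and 922.2 in the mutant yolk sacs and did not pass (2.50, adjusted p = 0.0847). It was uneven in wild types, at 6.45 and 187 in the embryos and 89.4 and 1222 in the yolk sacs. Tpbpa and Ascl2, markers of spongiotrophoblast, were detected on 0 of the 8 mutant arrays. The 11 members on the array that stayed below the filter also included Ctsj, Ctsm, Ctsq, Pgr, Prl8a9, Psg17, Psg21, Syna and Synb. The list's mean level was 6.50 and 6.58 in the mutant embryos and 7.97 and 7.73 in the mutant yolk sacs. Dcn, decorin of stroma, stood at 1.52, SE 0.42 and lost its call without the library labelled mutant embryo 2 (adjusted p = 0.0879) or mutant yolk sac 1 (0.0839). Des, desmin, and Tfap2c, a factor of trophoblast and ectoderm, were higher in the embryo at -2.28, SE 0.27 and -2.02, SE 0.33. The part of such tissue in the yolk sac differences was not tested.

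On the embryo side, the largest differences included heart muscle genes. Among genes detected on all 8 mutant arrays, Myl4, an atrial myosin light chain, gave signals of 6370 and 6092 in the mutant embryos against 21.6 and 23.1 in the mutant yolk sacs (log2 difference -6.92, SE 0.097, adjusted p = 4.15e-08), a 121-fold excess. Actc1, cardiac actin, gave 7272 and 7276 in the mutant embryos against 54.9 and 20.2 in the mutant yolk sacs (log2 difference -6.72, SE 0.52, adjusted p = 2.41e-05), and Myl3, a ventricular light chain, 2793 and 3073 in the mutant embryos against 41.0 and 49.5 in the mutant yolk sacs (log2 difference -5.11, SE 0.31, adjusted p = 7.85e-06). The yolk sacs were detected in all 3 but dim. Regulators of neural and skeletal development followed: Irx3, a homeobox factor of the neural tube, at -5.01, SE 0.11, Sox9, a factor of crest and cartilage, at -4.75, SE 0.11, and Sox11, a factor of young neurons and mesenchyme, at -4.60, SE 0.20. Crabp2, a carrier of retinoic acid, stood at -4.37, SE 0.23, Gpc1, a heparan sulfate proteoglycan, at -4.03, SE 0.18, and Shisa2, an antagonist of Wnt and Fgf receptors, at -3.99, SE 0.096. The other 3 of the leading 12 were Arg1, arginase, at -4.98, SE 0.16, the kinase gene Sbk1 at -4.68, SE 0.12 and Mycl, a Myc family factor, at -4.28, SE 0.15. The second probe of Shisa2 gave -1.44.

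Genes detected on all 4 mutant embryo arrays and on none of the 4 mutant yolk sac arrays included more heart and neural genes. Myl2, the ventricular regulatory light chain, gave 4953 and 4170.4 in the mutant embryos against -5.85 and -4.15 in the mutant yolk sacs and was at least 135-fold higher in the embryo. Myl7, its atrial counterpart, gave 2782 and 3905 in the mutant embryos against -2.15 and 4.95 in the mutant yolk sacs, at least 97.9-fold higher. Crabp1, a retinoic acid carrier of hindbrain and crest, gave 2353 and 2488 in the mutant embryos against -0.9 and 2.00 in the mutant yolk sacs, at least 71.7-fold higher. The yolk sac signals of these genes lay at background, on both sides of 0. The others, in alphabetical order, were Csrp3, a muscle LIM protein, at a bound of 37.4-fold, Ildr2 at 35.0, Meox1, a somite homeobox factor, at 44.4, Myl1, a skeletal light chain, at 55.5, Otx2, a head patterning factor, at 36.3, Septin3, a neuronal septin, at 44.7, and Sox21, a neural factor, at 40.7. The other probes of Septin3 ran from -0.39 to -4.70, and that of Sox21 gave -2.39. Those of Csrp3 gave -4.29 and -2.81, and that of Myl1 -3.91.

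Neural progenitor genes were higher in the mutant embryo in 29 of 31 tested members and in the yolk sac in 0, with a median of -2.49, or -2.32 with the 22 members dim in the yolk sac at their bound. Of the 9 detected in both tissues, 7 were higher in the embryo. Sox2, the factor that keeps neural progenitors dividing, gave 874 and 796 in the mutant embryos against -2.05 and -3.05 in the mutant yolk sacs, at least 24.6-fold higher. Zic1, a dorsal neural tube factor, gave 888 and 660 in the mutant embryos against 0.45 and -1.95 in the mutant yolk sacs, at least 22.5-fold higher, and Irx5 636 and 737 in the mutant embryos against -1.65 and 3.35 in the mutant yolk sacs, at least 20.3-fold. Both embryos were bright in these genes, and no yolk sac array detected them. The second probe of Sox2 gave a log2 difference of -3.53. Genes of neuronal differentiation were higher in the embryo in 23 of 31 members, with 2 higher in the yolk sac and a median of -1.08. Of the 12 detected in both tissues, 11 were higher in the embryo and 0 in the yolk sac. Ebf3, a factor of postmitotic neurons, was at least 18-fold higher (second probe -1.70) and Ebf2, its relative, at least 4.98-fold. Isl1, a factor of motor neurons, sensory neurons and heart precursors, gave 466 and 506 in the mutant embryos against 13.1 and 14.9 in the mutant yolk sacs (log2 difference -3.66, SE 0.092, adjusted p = 2.32e-07), with detection on 3 of 4 yolk sac arrays. Map1b, a microtubule protein of axons, stood at -3.22, SE 0.13, while its other probes gave -3.50, -0.76, -0.47 and 0.36, Crmp1, a protein of growth cones, at -2.96, SE 0.22, and Dll1, a Notch ligand of differentiating neurons and somites, at -2.56, SE 0.17. Prph, peripherin of peripheral neurons, went the other way, at 85.9 and 48.6 in the mutant yolk sacs against 9.45 and 5.95 in the mutant embryos, at least 3.30-fold higher in the yolk sac, as did Cntn2, an axonal adhesion protein, at least 1.55-fold, whose second probe was detected on 0 mutant arrays. Elavl3, an RNA-binding protein of neurons, gave 104.8 and 51.3 in the embryos and was not detected in the yolk sacs. Pax6, another neural marker, gave 39.7 and 47.65 in the mutant embryos and was not detected in the mutant yolk sacs. Tubb3 gave 26.5 and 25 in the mutant embryos and 11.9 and 13 in the mutant yolk sacs. It was detected on 3 of 4 mutant embryo arrays and 2 of 4 mutant yolk sac arrays.

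Neural crest and head mesenchyme genes were higher in the embryo in 22 of 26 tested members and in the yolk sac in 0, with a median of -2.13, or -1.85 with dim genes at their bound. The yolk sac arrays detected none of 15 of the 26, and 7 of the 10 detected in both tissues were higher in the embryo. Sox10, the factor of migrating crest, gave 658 and 994 in the mutant embryos against -5.0 and -1.60 in the mutant yolk sacs, at least 23.9-fold higher. Tfap2b and Tfap2a, factors of crest and ectoderm, gave 594 and 664 and 585 and 666 in the embryos, with Tfap2b at least 18.5-fold higher and Tfap2a at -4.09, SE 0.12. The other probes of Tfap2b ran from -0.55 to -4.20, and those of Tfap2a gave -0.48 and -3.17. Foxc1 and Foxc2, factors of head and vessel mesenchyme, were at least 14.5-fold and 10.1-fold higher, and Tbx1, a pharyngeal arch factor, at least 7.38-fold.

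Somite and tailbud genes were higher in the embryo in 16 of 18 tested members, with a median of -1.26, while 13 others on the array stayed below the filter. The yolk sac arrays detected none of 12 of the 18, and of the 6 detected in both tissues 4 were higher in the embryo and 1 in the yolk sac. The median was -2.56 over members detected on all 4 arrays of a mutant group and -0.80 with an offset of 50. Tcf15, which somite epithelium needs, gave 479 and 566 in the mutant embryos against 8.45 and 2.50 in the mutant yolk sacs, at least 15.3-fold higher. Wnt3a and Fgf8, signals of the tailbud, were at least 9.83-fold and 8.81-fold higher, and Meox2, a somite factor, and Fgf17 at least 5.62-fold and 5.26-fold. By the probes used, these signals and factors were detected on every mutant embryo array and on no mutant yolk sac array. A second probe of Fgf17 gave a log2 difference of -0.42 and was detected on 1 mutant array. Myf5, the first muscle factor, was detected on 0 mutant arrays. Cdx2, a posterior patterning factor that gut and trophoblast also use, was the member higher in the yolk sac, at 139 and 366 in the mutant embryos and 491 and 502 in the mutant yolk sacs (log2 difference 1.54, SE 0.44, adjusted p = 0.0156). Its call was lost without mutant embryo 1 (0.93, adjusted p = 0.0927) or without either mutant yolk sac (adjusted p = 0.0680 and 0.0536).

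Hox genes, the factors of head-to-tail patterning, were higher in the mutant embryo in 19 of 22 tested members and in the yolk sac in 0, with a median of -1.81. Of the 13 detected in both tissues, 11 were higher in the embryo. Hoxd4 gave 704 and 831 in the mutant embryos against -0.1 and 6.15 in the mutant yolk sacs, at least 22.6-fold higher, Hoxa5 734 and 609 in the mutant embryos against 2.60 and 8.80 in the mutant yolk sacs, at least 19.7-fold, and Hoxb1, a hindbrain gene, 384 and 483 in the mutant embryos against 2.30 and 4.30 in the mutant yolk sacs, at least 12.6-fold. The yolk sacs lay at background in these. Hoxd3 and Hoxa7 were at least 13.9-fold and 9.87-fold higher, and Hoxa2 stood at -4.28, SE 0.13 with detection on 1 yolk sac array. In the B cluster, Hoxb6 gave 132 and 146 in the mutant embryos and 53.5 and 72.3 in the mutant yolk sacs, a level difference of -0.37 (SE 0.11), and Hoxb7 346 and 299 in the mutant embryos and 161 and 159 in the mutant yolk sacs (-0.39), both detected on all 8 mutant arrays, while Hoxb9 was at least 7.2-fold higher in the embryo, with no yolk sac array detecting it. Of the Hoxc genes tested, Hoxc10 (log2 difference 0.05, SE 0.12, adjusted p = 0.731) and Hoxc4 (0.07, adjusted p = 0.717) did not pass. Hoxb6, Hoxb7, Hoxb9, Hoxc10 and Hoxc4 were singled out after their values were seen.

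**Figure D4:**
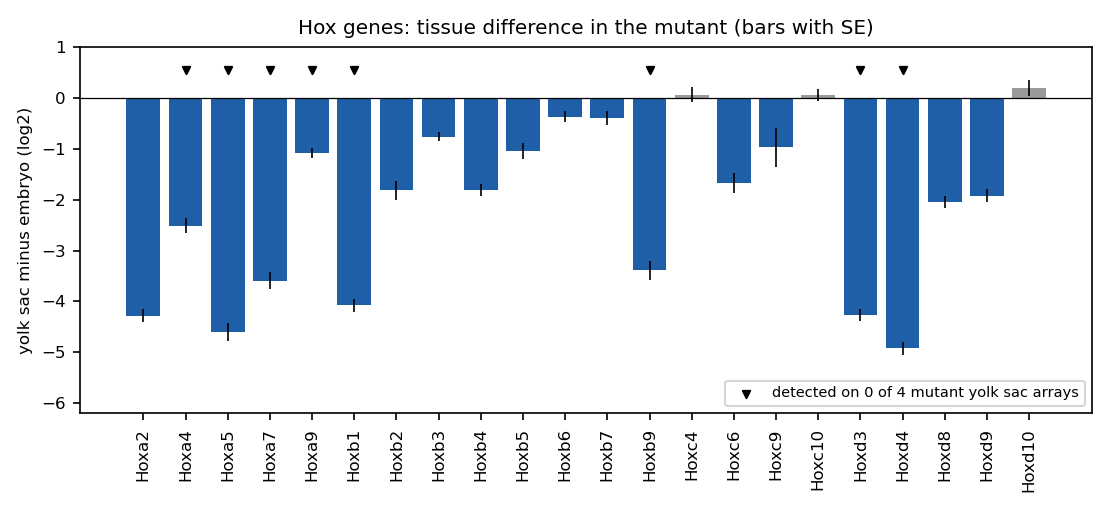
Yolk sac minus embryo difference in the mutant (log2, bars with the SE of the fit) for the 22 tested Hox genes, in cluster order, with triangles over the 8 genes detected on none of the 4 mutant yolk sac arrays, whose bars are not bounds. No bar that passed lies above 0, the order of the bars under triangles is not measured, and grey bars (Hoxc4, Hoxc10, Hoxd10) did not pass.

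Heart and sarcomere genes were higher in the embryo in 27 of 34 tested members, 19 of them by at least 4-fold, with a median of -2.28, or -2.02 with dim genes at their bound. Of the 20 detected in both tissues, 13 were higher in the embryo and 3 in the yolk sac. Beyond the myosin light chains above, Nppa, the atrial natriuretic peptide, gave 1332 and 721 in the mutant embryos against -3.20 and -5.65 in the mutant yolk sacs, at least 28.8-fold higher, and Nkx2-5, a heart transcription factor, gave 127.7 and 174.8 in the embryos and was not detected in the yolk sacs. Embryo 1 exceeded embryo 2 in Nppa, while the order was opposite in Nkx2-5. The 3 members higher in the yolk sac were transcription factors that extraembryonic mesoderm or endoderm also uses: Tbx2 at 45.2 and 34.0 in the mutant embryos and 64.2 and 80.5 in the mutant yolk sacs (log2 difference 1.32, SE 0.20, adjusted p = 0.000734), Hand1 at 1.13, SE 0.21 and Gata4 at 1.03, SE 0.19, detected on 2 of 4 embryo arrays.

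Limb and lateral plate genes were higher in the embryo in 16 of 17 tested members, with a median of -2.45, and in all 9 detected in both tissues. Shh, the signal of limb, floor plate and notochord, gave 548 and 532 in the mutant embryos against 1.90 and 4.45 in the mutant yolk sacs, at least 15.9-fold higher. En1, a factor of ventral limb ectoderm and midbrain, was at least 14.4-fold higher, and Gli3, which mediates Hedgehog signals, gave 2476 and 2481 in the mutant embryos against 130.1 and 128 in the mutant yolk sacs (log2 difference -3.63, SE 0.093, adjusted p = 2.34e-07). No yolk sac value of the probes used approached the embryo values. Second probes gave log2 differences of -2.44 for Shh, -1.80 for En1 and -2.46 for Gli3. Intermediate mesoderm genes were higher in the embryo in 8 of 11 tested members, with a median of -1.13, or -0.85 with dim genes at their bound, and in 4 of the 7 detected in both tissues, with 1 higher in the yolk sac. Eya1, a cofactor of kidney and sensory placodes, was at least 7.07-fold higher, Ret, a receptor of nephric duct and enteric neurons, at least 5.07-fold, and Osr2 and Six2, kidney mesenchyme factors, at least 1.8-fold and 1.58-fold. Gata3, a nephric duct factor, stood at -1.83, SE 0.20 and Osr1 at -1.13, SE 0.23. Other probes gave log2 differences of -1.49 and -1.08 for Eya1, -1.85 for Ret and -0.83 for Osr2. Cited1, a transcriptional cofactor that visceral endoderm and trophoblast also express, was the reverse, at 211 and 367 in the mutant embryos and 2174 and 2504 in the mutant yolk sacs (log2 difference 3.34, SE 0.28, adjusted p = 3.50e-05).

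The list of gut, notochord and floor plate genes was split, with 6 of 20 tested members higher in the yolk sac, 10 in the embryo and a median of -0.38, and with 5 and 4 among the 13 detected in both tissues. The 6 make 30% and the 10 make 50% of the tested members, against 32.8% and 36.5% of all tested genes. The list's median was -0.25 without mutant yolk sac 1. Ihh, Indian hedgehog, known in visceral endoderm, gave 23.1 and 42.5 in the mutant embryos and 309.7 and 451 in the mutant yolk sacs (log2 difference 3.59, SE 0.25, adjusted p = 1.41e-05), with detection on 3 of 4 embryo arrays. Cldn6, a claudin of early epithelia, gave 2486 and 3258 in the mutant embryos and 9139 and 9633 in the mutant yolk sacs (log2 difference 1.96, SE 0.23, adjusted p = 0.000166). These hedgehog ligands stood on opposite sides, Ihh higher in the yolk sac and Shh in the embryo. Sostdc1, a secreted antagonist of Bmp and Wnt, was at least 5.12-fold and Pyy, a gut peptide, at least 2.12-fold higher in the embryo.

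DNA replication and mitosis genes were higher in the embryo in 20 of 29 tested members, none by 4-fold, with a median of -0.58. Mcm7, of the replicative helicase, gave 1639.7 and 2032 in the mutant embryos against 498 and 571 in the mutant yolk sacs (log2 difference -1.37, SE 0.14, adjusted p = 7.73e-05), and Pcna, the sliding clamp, 1014 and 1151 in the mutant embryos against 362 and 391 in the mutant yolk sacs (log2 difference -1.06, SE 0.10, adjusted p = 6.81e-05). Rrm2, a subunit of ribonucleotide reductase, stood at -1.28, SE 0.11, Mcm3 at -1.16, SE 0.13, Bub1b, a spindle checkpoint kinase, at -1.06, SE 0.12, and Cdc6, which loads the helicase, at -1.05, SE 0.11. Embryo and yolk sac samples did not overlap in Mcm7 or Pcna. Ccnb2, a mitotic cyclin, was higher in the yolk sac level by 0.40 (adjusted p = 0.0356), a call lost under median scaling (0.16, adjusted p = 0.418) and with any mutant sample left out (adjusted p = 0.0820 to 0.140). Ribosomal protein genes did not pass in 18 of 31 members, while 13 were higher in the embryo, a share of 41.9% near the 36.5% of all tested genes. The members with the largest differences were Rpl22 at -0.78, SE 0.096 and Rpl26 at -0.59, SE 0.11. Rpl32 (-0.56), Rpl12 (-0.51), Rpl19 (-0.43) and Rps20 (at least 1.15-fold) followed. Their median was -0.15 and their count 6 without the library labelled mutant embryo 2, 7 without mutant yolk sac 2, and 9 without mutant embryo 1 or with median scaling. Processed copies of ribosomal protein genes can share probe sequence, so these values are uncertain.

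Glycolysis and hypoxia genes were higher in the embryo in 12 of 26 tested members and in the yolk sac in 3, with a median of -0.32. The embryo share of 46.2% compares with 36.5% of all tested genes. With 1 library left out the median was -0.60 (mutant embryo 1), -0.19 (the one labelled mutant embryo 2), -0.17 (mutant yolk sac 1) or -0.48 (mutant yolk sac 2). Ddit4, a stress-induced inhibitor of mTOR, gave 384 and 1675 in the mutant embryos and 44.7 and 118 in the mutant yolk sacs (log2 difference -2.68, SE 0.60, adjusted p = 0.00514), and Aldoc, an aldolase, 80.8 and 212 in the mutant embryos and 7.95 and 5.90 in the mutant yolk sacs (log2 difference -2.23, SE 0.32, adjusted p = 0.000538). In both genes the library labelled mutant embryo 2 was the highest sample, at several times the value of embryo 1. Aldoc was detected on 5 of the 8 mutant arrays. Pgk1, phosphoglycerate kinase, stood at -1.47, SE 0.15, while its other probes gave -1.09 and 0.10. Pkm, pyruvate kinase, stood at -1.36, SE 0.18, Aldoa at -1.26, SE 0.14 and Pfkl, a phosphofructokinase chain, at -1.59, SE 0.26. Second probes gave -1.62 for Pkm and -0.45 for Pfkl. Without the library labelled mutant embryo 2, or without mutant yolk sac 1, 7 members were higher in the embryo. Higher in the yolk sac were Pfkp, another phosphofructokinase chain, at 1.61, SE 0.21, Slc2a3, a high-affinity glucose transporter, at 5099 and 7667 in the mutant embryos and 10637 and 11782 in the mutant yolk sacs (log2 difference 1.13, SE 0.22, adjusted p = 0.00244), and P4ha2, a collagen hydroxylase, at 0.40, a call lost under median scaling (0.28, adjusted p = 0.217).

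Genes of the amino acid and unfolded protein response leaned to the yolk sac, with 14 of 27 tested members higher there and 6 in the embryo. Their median was 0.57. Among the 25 detected in both tissues, 12 were higher in the yolk sac and 6 in the embryo. Cebpb, a factor of secretory and stressed cells, gave 164 and 190.3 in the mutant embryos and 1154 and 1083 in the mutant yolk sacs (log2 difference 3.00, SE 0.20, adjusted p = 1.25e-05), and Xbp1, which expands the secretory pathway, 2019 and 2226 in the mutant embryos and 4837 and 4505 in the mutant yolk sacs (log2 difference 1.41, SE 0.13, adjusted p = 4.62e-05). Psph, of serine synthesis, was at least 5.20-fold higher, Phgdh, the first enzyme of that pathway, stood at 1.24, SE 0.17, Trib3 at 1.86, SE 0.24 and Atf3 at 1.23, SE 0.11. Vldlr, a lipoprotein receptor, at -2.25, SE 0.53, Slc7a3, a carrier of basic amino acids, at -0.87, SE 0.22, and Mthfd2, of mitochondrial folate metabolism, at -0.86, SE 0.093, were higher in the embryo.

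Imprinted and growth factor genes stood on both sides, 12 of 24 tested members higher in the yolk sac and 9 in the embryo, with a median of 0.36. These shares, 50% and 37.5%, compare with 32.8% and 36.5% of all tested genes, so the embryo share is near that of all genes. Among the 22 detected in both tissues, 11 were higher in the yolk sac and 8 in the embryo. Slc22a18 and Phlda2, imprinted neighbours, gave 24.6 and 36.5 in the mutant embryos and 741 and 739.8 in the mutant yolk sacs for Slc22a18 (log2 difference 4.54, SE 0.40, adjusted p = 4.04e-05) and 503 and 909 in the mutant embryos and 8784 and 8584 in the mutant yolk sacs for Phlda2 (log2 difference 3.92, SE 0.87, adjusted p = 0.005). A second probe of Slc22a18 gave 0.45. Dlk1, a paternally expressed Notch-like protein, was bright in both tissues, at 8249.9 and 7335 in the mutant embryos and 11796 and 12231 in the mutant yolk sacs (log2 difference 0.92, SE 0.12, adjusted p = 0.000274). Igfbp7 stood at 2.08, SE 0.13, Igf1, the growth factor, at 1.10, SE 0.13, and Igfbp1, a binding protein of the same system, was at least 1.88-fold higher in the yolk sac. Grb10, an imprinted growth inhibitor, gave 8962 and 10975 in the mutant embryos against 1561 and 2277 in the mutant yolk sacs (log2 difference -2.11, SE 0.14, adjusted p = 1.18e-05), Igfbp5 stood at -1.97, SE 0.13, and Ndn, necdin, at -2.20, SE 0.20. The yolk sac count of 12 was 7 or 8 with any mutant sample left out and 8 with either wild-type embryo left out or under median scaling.

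The same tissue contrast was then set beside the wild type. There 7874 genes (69.5%) passed, and 6751 genes passed in both genotypes with the same sign, 86% of the mutant's calls and 85.7% of the wild type's. Another 39 passed in both with opposite sign. The test of the difference between genotypes was the interaction contrast, the tissue difference in mutants minus that in wild types. It passed for 38 of 11334 genes (0.335%), 30 with the mutant difference above the wild-type one (0.265%) and 8 below it (0.0706%), and 2121 genes had an unadjusted p under 0.05. The split between above and below turned in some settings. It was 24 and 32 under median scaling (56 genes), and without wild-type embryo 2 more genes also lay below than above. With an offset of 50 it kept its direction, at 92 and 51. Of the 30, 11 belong to the 31 tested neuronal differentiation genes, which also held 1 of the 8. This list's median tissue difference was -1.08 in mutants and -2.43 in wild types. These calls depended on single samples and on the fit. With the conceptus number as a replicate block, which the labels support, the count was 0 (1981 at an unadjusted p under 0.05). It was also 0 (limma) without the library labelled mutant embryo 2, mutant yolk sac 2, wild-type yolk sac 1 or wild-type yolk sac 2, where 1416, 2173, 2444 and 1769 genes had an unadjusted p under 0.05. It was 11 without wild-type embryo 1, 35 without mutant yolk sac 1, 71 without wild-type embryo 2 and 86 without mutant embryo 1.

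**Figure D5:**
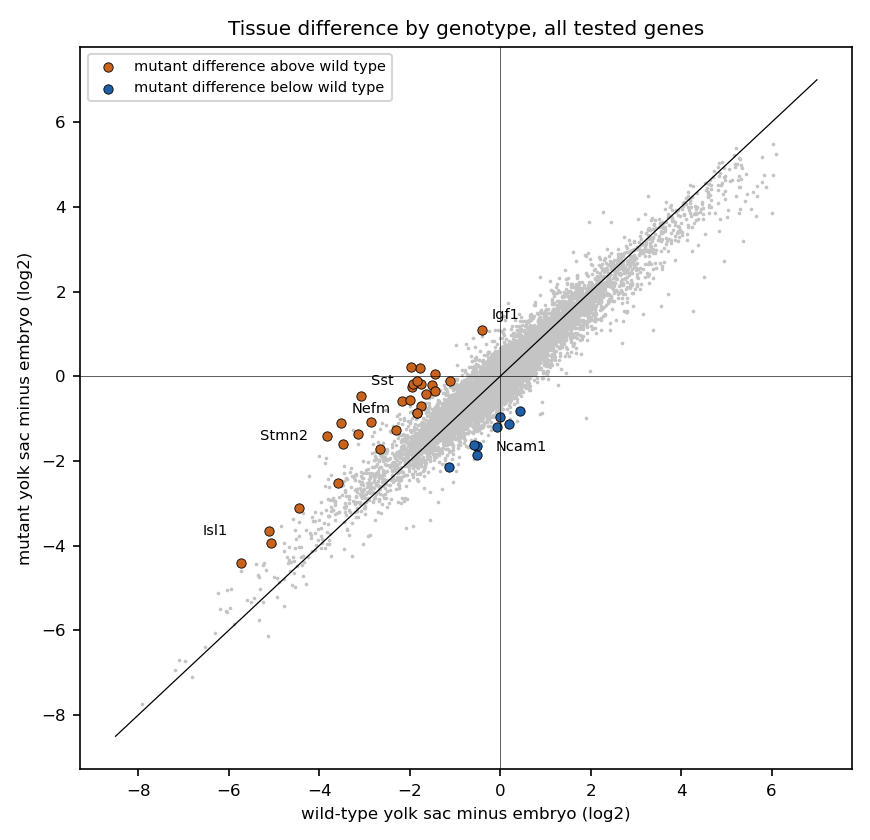
Yolk sac minus embryo difference (log2) in mutants against that in wild types for all 11334 tested genes, with the line of equality. Coloured points are the 38 genes that passed the interaction test, 30 above the line (Stmn2, Nefm and Sst among them) and 8 below it (Ncam1 among them).

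Stmn2, a microtubule regulator of neurons, gave signals of 90.4 and 105 in the mutant embryos and 13.5 and 14.6 in the mutant yolk sacs, and 348 and 414 in wild-type embryos and 10.3 and 6.25 in wild-type yolk sacs. Its tissue difference was -1.42 in mutants and -3.83 in wild types, an interaction of 2.41 (SE 0.17, adjusted p = 0.0104). Nefm, a neurofilament chain, gave 87.9 and 70.4 in the mutant embryos and 13.9 and 15.6 in the mutant yolk sacs, and 346 and 385 and 15.8 and 16.5 in wild-type embryos and yolk sacs, an interaction of 2.40 (SE 0.20, adjusted p = 0.0124). In both genes the mutant embryos lay well below the wild-type embryos, and the yolk sacs of both genotypes were near background. Other probes of Nefm gave mutant tissue differences of -0.25 and -0.39 and were detected on 0 and 2 mutant arrays. Isl1, another neuronal gene, had an interaction of 1.45 (adjusted p = 0.0124), with embryo signals of 466 and 506 in mutants and 784 and 822 in wild types. The probe of Isl1 was detected on 7 of the 8 mutant arrays. The parts of the embryos and of the dim yolk sacs in its interaction were not tested. Igf1 gave 86.9 and 84.7 in the mutant embryos and 104 and 152 in the mutant yolk sacs, and 114 and 120.5 and 69.0 and 87.7 in wild-type embryos and yolk sacs, so its difference was 1.10 in mutants and -0.41 in wild types (interaction 1.51, adjusted p = 0.0331). Ncam1, a neural adhesion protein, was among the 8 below, at -1.62 in mutants and -0.57 in wild types (interaction -1.05, adjusted p = 0.0331), and its second probe gave a mutant difference of -0.27. Isl1 and Igf1 were named in the genotype test after their values were seen. Bcas3 itself differed by -0.21 in mutants and 1.28 in wild types, and its interaction of -1.49 did not pass (adjusted p = 0.169).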

How the data were processed

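Total RNA (Trizol) was labelled as biotin-cRNA and read on Illumina MouseWG-6 v2 bead arrays, 2 repeat arrays per RNA, per the labels' protocols. The deposited intensity values are linear signals from which the authors' values show a background already subtracted, so 28.07% to 32.74% of an array's probes lie below 0, with no normalization between arrays. The score beside each deposited intensity is headed as a p-value, but its Spearman correlation with the signal was 0.00157 to 0.0106, so the scores did not follow the probes. Scores and signals were therefore each sorted within an array and paired in that order, and 1 minus the paired score served as the detection p. This is an assumption on which the background estimate and detection calls rest. The authors' software is not given in the sources used here. A second deposited table, centred within each tissue, carries no tissue difference and was not used.

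Signals were corrected by normexp (limma 3.58.1, R 4.3.3) with an offset of 16, quantile normalized and put on the log2 scale, and repeat arrays were averaged. Probes detected (p under 0.05) on at least 4 of 16 arrays were kept (21193 of 45281). Of all probes, 34885 had 1 gene symbol in GEO's platform annotation, 18 several and 10378 none. Each gene was represented by its brightest kept probe on average, giving 11334 of 19057 genes. limma fitted 1 mean per group over all 8 samples (residual degrees of freedom 4), with two-sided tests and Benjamini-Hochberg adjustment over all genes. For a gene dim on all 4 arrays of a group the fold is a lower bound against the lowest signal among detected probes. The bound holds for the probe used, not for other probes of the gene. With 2 samples on each side, exact permutation has no outcome under 0.05. Whether samples of 1 genotype are separate litters is not stated, so the spread behind the p-values may lack variation between litters. The array number limits precision. The scripts were tested on simulated data.

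Named genes were the 12 largest differences each way among genes detected on all 8 mutant arrays, the 10 largest bounds each way, in each list up to 6 members in its majority direction and up to 3 in the other, the 8 largest interactions each way, and Bcas3, with the cell type markers. Members and lists were chosen with earlier results of these data known. Embryo and yolk sac of a number share a conceptus, by the labels. The deviations of same-numbered samples from their group means correlated at 0.22 in mutants and 0.0421 in wild types. Alternatives covered normalization, offset, filters, repeat arrays, samples, probes, the conceptus as a block, and leaving out each sample.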

Additional observations from a re-analysis of the deposited data

Results flagged for a closer look

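In the main fit, without a replicate block, the 16 named genes below passed the test of the interaction (limma, adjusted p under 0.05). It compares the tissue difference (yolk sac minus embryo, log2) of mutants with that of wild types. None of the 16 kept its call with the conceptus number as a replicate block, which the labels support and where 0 genes passed. Calls were also lost in fits with 1 sample left out. The mutant difference lay above the wild-type one for Sst, somatostatin, by 2.62 (adjusted p = 0.0124), although mutant embryos detected it on 2 of 4 arrays and mutant yolk sacs on 0. Among neuronal genes it lay above by 2.41 for Stmn2 (adjusted p = 0.0104), by 2.40 for Nefm (0.0124) and by 1.77 for Pou4f1, a sensory neuron factor (0.0196). Other genes above were Inmt, a methyltransferase, at 2.19 (adjusted p = 0.0104), Hoxd10 at 1.98 (0.0283), Barx1, a homeobox factor of jaw and stomach mesenchyme, at 1.90 (0.0497) and Crym, a thyroid hormone binding protein, at 1.77 (0.0115). In mutants Inmt was detected on 0 embryo and 2 yolk sac arrays, and Hoxd10 on 0 and 1.

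The mutant difference lay below the wild-type one for Ppl, a plakin of epithelial junctions, at -1.35 (adjusted p = 0.0399), Myo5c, an epithelial myosin, at -1.33 (0.0355), Arid3a, a DNA-binding factor, at -1.27 (0.0283) and Bmp3 at -1.14 (0.0399). The same direction was measured for Arhgap29 at -1.11 (adjusted p = 0.0448), Ncam1 at -1.05 (0.0331), Fgf18 at -1.02 (0.0315) and Dis3, an exosome nuclease, at -0.95 (0.0399). A second probe of Arhgap29 gave a mutant tissue difference of 0.24 against -1.19 for the probe used.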

How the results depend on the processing

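The count of 7850 genes differing between mutant tissues ranged from 6776 to 8328 over all alternatives, and from 6776 to 7956 with 1 sample left out. The count of genes past 4-fold was 681 with an offset of 50 in place of 1100 at 16, and 1098 to 1123 with 1 sample left out. Of 26 lists, 14 had a median above 0 in every setting. The interaction count of 38 was 56 under median scaling, 143 with an offset of 50, 81 with no filter, 5 with genes detected on all 4 arrays of a mutant group, 18 with the first arrays only and 0 with the replicate block, and ranged from 0 to 86 with 1 sample left out. The block, which pairs embryo and yolk sac of 1 conceptus, left 7702 mutant tissue calls. For the 212 named genes, 3341 of 3392 tissue differences kept direction and side of the threshold, 49 fell short of it and 1 newly passed. Bcas3 changed sign, to 0.38 (adjusted p = 0.114), without mutant embryo replicate 2, and passed at -0.79 (adjusted p = 0.0100) without mutant embryo replicate 1. The causes were not tested. For the 16 interaction genes 132 of 237 values fell short. Dim probes near background limit what can be read, since a level there depends on the offset.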

Other observations

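Differences within the posterior Hox genes were seen after the values were examined. Hoxc9 gave 419 and 418 in the mutant embryos, 167 and 111 in the mutant yolk sacs and 9.05 and 37.0 in the wild-type embryos, with an interaction of -2.88 that did not pass (adjusted p = 0.0658). Hoxb9 gave 229 and 262 in the mutant embryos and 79.2 and 46.0 in the wild-type embryos, with an interaction of -1.85 (adjusted p = 0.0515).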
